A study of Gallus gallus with 6 samples.

Results

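miR-26a was examined in the leg muscle of chickens (Gallus gallus) of the Xinghua breed, across late embryonic growth and hatching. Its members were taken by name, as every entry called gga-miR-26a with any arm in the deposited small RNA tables. This gave 2 entries, gga-miR-26a-5p and gga-miR-26a-3p (written below without the species prefix), of 846 entries in all, 534 of which carry a chicken miRNA name. The other 312 carry a provisional identifier. Whether any of them holds miR-26a reads was not tested, so the levels, shares and ratios below cover the 2 named entries only. The 3 groups were named E11 for embryos at day 11, E16 for embryos at day 16 and P1 for chicks on day 1 after hatching. Each held 2 samples labelled female, untreated as far as the labels say. Nothing in the labels ties the samples of an age to different animals, so the 2 samples of an age could be technical repeats. The p-values below rest on the spread between such samples. For fold changes that spread was pooled over the 3 ages and drew on that of the other entries.

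A miRNA hairpin is cut into a 5p and a 3p strand, and in most cases 1 of them is loaded into Argonaute and guides it to target mRNAs. miR-26a is found in many tissues and is not confined to muscle. In mouse myoblasts it accumulates during differentiation and represses Ezh2, the Polycomb methyltransferase that keeps muscle genes silent, as well as Smad1 and Smad4, which carry BMP and TGF-beta signals that hold back differentiation. These roles are background from mouse, and no target was measured here. The NCBI RefSeq annotation of chicken assembly GRCg7b holds 2 miR-26a hairpin genes. MIR26A1 lies within the span of CTDSPL and MIR26A-2 within the span of CTDSP1, both genes of the small C-terminal domain phosphatase family, which hosts miR-26 hairpins in mammals as well. The names miR-26a-5p and miR-26a-3p do not say which hairpin gave the reads, so these 2 entries do not tell the loci apart. MIR26A1 is on chromosome 2 and MIR26A-2 on chromosome 7. Many provisional identifiers start with what looks like a chromosome number, but they were not used to assign reads to a hairpin.

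Values were read as counts per entry. Libraries held between 303556 and 2641042 counts, the E11 libraries being the shallowest. Levels are given as CPM, counts scaled to a common total after TMM normalization, and fold changes are differences of log2 CPM from 1 edgeR model over all 6 libraries. An entry is said to have risen or fallen only where its Benjamini-Hochberg adjusted p was under 0.05. Of the 846 entries, 289 passed the filter on low counts, both miR-26a entries among them.

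miR-26a-5p, the strand that carries the known targeting activity, was the abundant arm. It was counted 183 and 834 times in the E11 libraries (replicates 1 and 2), 1491 and 869 times in the E16 libraries, and 5918 and 3541 times in the P1 libraries. On the CPM scale the E11 libraries had 534 and 1202, the E16 libraries 1192 and 897, and the P1 libraries 2551 and 2002. Both P1 libraries therefore lay above all 4 embryonic libraries, while the E11 and E16 libraries overlapped, with the second E11 library marginally above both E16 libraries. Mean levels with their SD (n = 2) were 868 ± 472 CPM for E11, 1044 ± 208.1 CPM for E16 and 2276 ± 389 CPM for P1.

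The same order was seen in the plain share of counts, which needs no scaling between libraries. miR-26a-5p took 0.0603% of counts in the first E11 library (95% Wilson interval 0.0522% to 0.0697%) and 0.142% in the second (0.132% to 0.151%). It took 0.124% (0.118% to 0.130%) and 0.0916% (0.0857% to 0.0979%) at E16. At P1 it took 0.224% (0.218% to 0.230%) and 0.161% (0.156% to 0.166%). The intervals of the 2 libraries of each age did not overlap, so the libraries of 1 age differed by more than counting error, which is all that these intervals cover. By count among named entries, miR-26a-5p held places 63 and 57 in the E11 libraries, 55 and 59 in the E16 libraries and 32 and 47 in the P1 libraries, so its highest places were in the P1 libraries. The mean share was 0.101% ± 0.0575 for E11, 0.108% ± 0.0229 for E16 and 0.192% ± 0.0447 for P1 (SD, n = 2). P1 against either embryonic age had an exact two-sided permutation p of 0.3333, which is the smallest this design allows, and E16 against E11 an exact permutation p of 1.

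The gap between the 2 E11 libraries was 2.25-fold, larger than the 1.33-fold gap at E16 and the 1.27-fold gap at P1. It was not exceptional for these libraries, since 26.0% of tested entries had an E11 gap at least as large, and the median gap over tested entries was 1.59-fold. The first E11 library also held the most cartilage marker miR-140, at 0.103% of its counts against 0.0173% in the second. Other entries differed between the 2 E11 libraries as well, such as miR-10a-5p, at 12845 CPM in the first and 93330 CPM in the second. The part of these differences in the E11 gap was not tested.

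**Figure D1:**
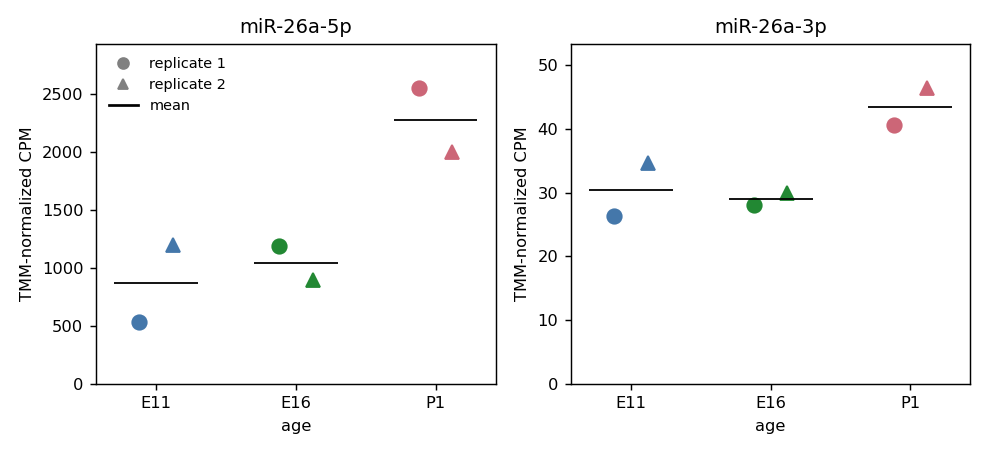
TMM-normalized CPM (y axis, from 0) of miR-26a-5p (left) and miR-26a-3p (right) at each age, with circles for replicate 1, triangles for replicate 2 and black bars for the mean of 2 libraries. Both P1 libraries lie above the other libraries in both panels, and the E11 libraries of miR-26a-5p, at 534 and 1202 CPM, lie farthest apart.

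miR-26a-3p, the strand usually degraded, was rare. The E11 libraries held 9 and 24 counts of it, the E16 libraries 35 and 29, and the P1 libraries 94 and 82. As CPM the E11 libraries had 26.3 and 34.6, the E16 libraries 28.0 and 29.9, and the P1 libraries 40.5 and 46.4. The P1 libraries were again the highest, although by a small margin over the second E11 library. As a share of counts the P1 libraries, at 0.00356% and 0.00372%, lay between the E11 libraries, at 0.00296% and 0.00407%, so the higher level of the 3p arm at P1 than at E11 was present after TMM scaling and absent from the plain shares.

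The comparison of E16 with E11 asked whether miR-26a differed between these stages of embryonic growth. No difference was detected in either arm. miR-26a-5p was higher at E16 by a log2 fold change of 0.26 (SE 0.48, 95% interval -0.87 to 1.40, edgeR Benjamini-Hochberg adjusted p = 0.790), against a median of -0.026 over all tested entries. miR-26a-3p had -0.09 (SE 0.47, 95% interval -1.21 to 1.03, adjusted p = 0.970). In this comparison 6.57% of tested entries passed, and neither arm was among them. The sign for miR-26a-5p rested on the first E11 library: without it the log2 fold change was -0.085 (adjusted p = 0.905), and without the second E11 library it was 0.95 (adjusted p = 0.242), while without E16 replicate 2 it was 0.67 (adjusted p = 0.659). The intervals are wide enough to hold a change of more than 2-fold in miR-26a-5p at this sample size.

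P1 and E16 lie on either side of hatching. miR-26a-5p was 2.18-fold higher at P1 (log2 fold change 1.12, SE 0.49, 95% interval -0.024 to 2.27). It missed the threshold, with an edgeR Benjamini-Hochberg adjusted p of 0.398 and an unadjusted p of 0.0537. Its libraries did not overlap between these ages, which held in the upward direction for 26.3% of tested entries. Of the 289 fold changes, that of miR-26a-5p stood at the 88.9th percentile, and 14.2% of entries had a log2 fold change above 1. miR-26a-3p was 1.50-fold higher (0.58, SE 0.45, adjusted p = 0.610). No entry passed here in edgeR (0% of those tested), where 37 had an unadjusted p under 0.05, and DESeq2 called 2 entries, neither a miR-26a arm. The log2 fold change of miR-26a-5p lay between 0.84 and 1.30 in the 6 fits that each left out 1 library.

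Across the widest span, from E11 to P1, miR-26a-5p came nearest to a call. It was 2.62-fold higher at P1 (log2 fold change 1.39, SE 0.49, 95% interval 0.23 to 2.54), with an unadjusted p of 0.0249 and an edgeR Benjamini-Hochberg adjusted p of 0.0692, so it did not pass. Both P1 libraries lay above both E11 libraries, which was true of 30.4% of tested entries. Of the tested entries 30.4% passed in either direction and 14.2% in the upward direction, and 25.3% had a log2 fold change above 1. miR-26a-5p stood at the 78.9th percentile of fold changes, and its difference was not apart from those of the other entries. miR-26a-3p had a log2 fold change of 0.49 (SE 0.47, 95% interval -0.60 to 1.59, adjusted p = 0.480).

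Whether miR-26a-5p passed between E11 and P1 depended on the tool, the filter and 1 library. It passed in DESeq2 (1.45, adjusted p = 0.0354), with no filter on low counts (1.73, adjusted p = 0.0125) and without E11 replicate 2 (2.07, adjusted p = 0.0329), and in none of the other 13 alternatives. Without E11 replicate 1 it had 0.98 (adjusted p = 0.139), and over all alternatives the adjusted p ran from 0.0125 to 0.209. Scaling by library totals alone shifted the median over all entries from -0.15 to -0.62, and miR-26a-5p from 1.39 to 0.93, so that relative to that median it was at 1.54 with TMM and 1.55 with totals.

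**Figure D2:**
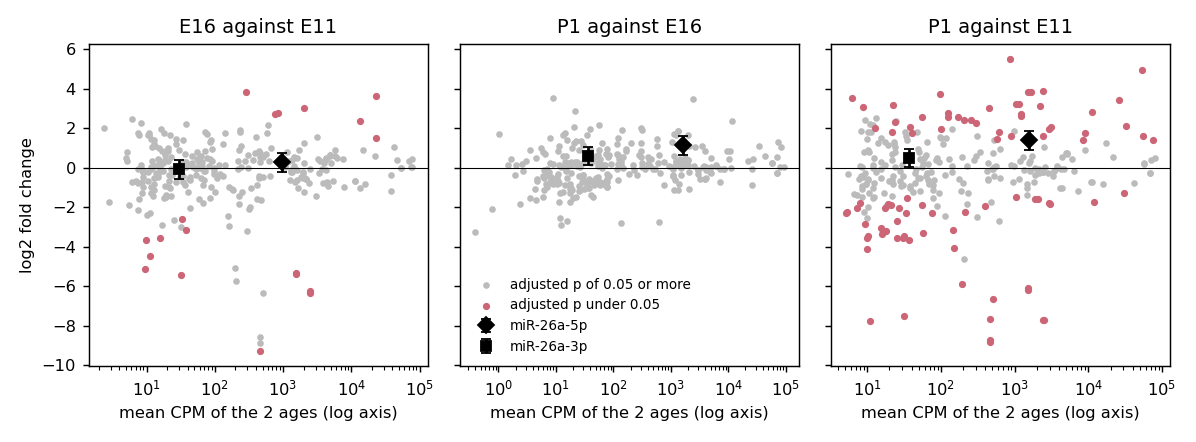
Log2 fold change (y axis) against mean CPM of the 2 ages (x axis, log scale) for the 289 tested entries in each comparison, with entries past an adjusted p of 0.05 in red and the rest in grey. The black diamond is miR-26a-5p and the black square miR-26a-3p, with bars of 1 SE; miR-26a-5p sits at 0.26, 1.12 and 1.39 from left to right, among the grey entries each time.

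**Figure D3:**
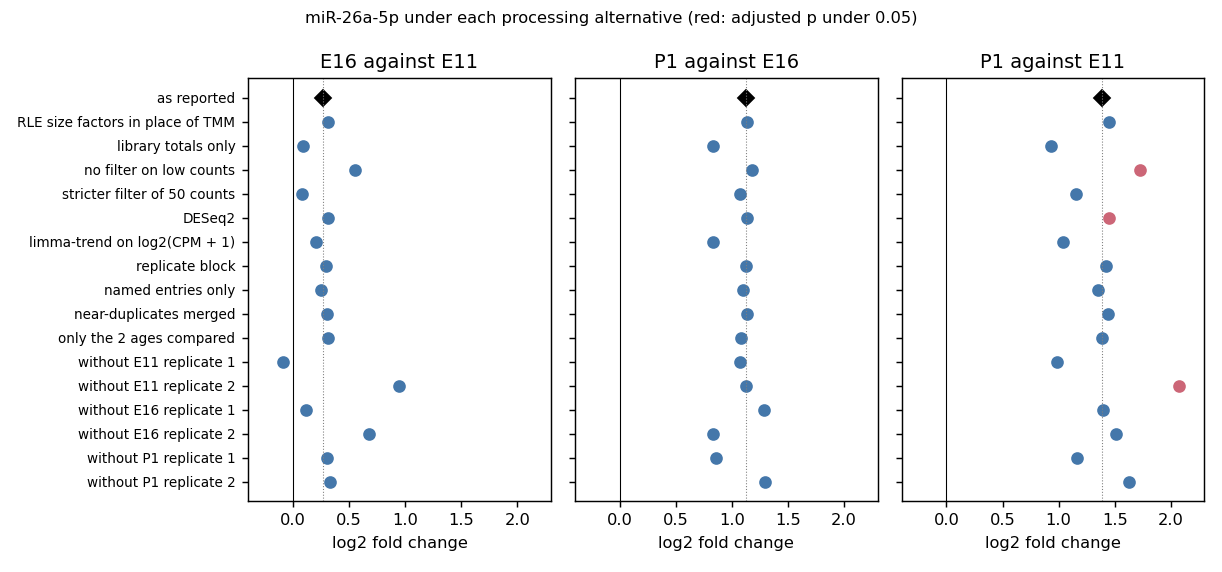
Log2 fold change of miR-26a-5p (x axis) in each comparison as reported (black diamond, dotted line) and under each of 16 processing alternatives (points, named on the y axis), with red points for an adjusted p under 0.05. Red points occur only between P1 and E11, for no filter, DESeq2 and the fit without E11 replicate 2, and the point left of 0 is the E16 against E11 fit without E11 replicate 1.

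The balance of the arms was followed within each library. Per count of the 3p arm, the E11 libraries held 20.3 and 34.8 counts of the 5p arm, the E16 libraries 42.6 and 30.0, and the P1 libraries 63.0 and 43.2. The P1 ratios were the highest, but the second P1 library (43.2) barely exceeded the first E16 library (42.6). Those 2 ratios rest on 82 and 35 counts of the 3p arm. The E11 and E16 ratios overlapped. On the log2 scale, with 0.5 added to each count, the mean ratio (± SD, n = 2) was 4.68 ± 0.58 for E11, 5.14 ± 0.36 for E16 and 5.70 ± 0.39 for P1. The difference of 1.02 between P1 and E11, and that of 0.56 between P1 and E16, each had an exact two-sided permutation p of 0.3333, the smallest that 2 libraries against 2 allow, and E16 against E11 had 0.46 (exact permutation p = 0.667). The first E11 ratio rests on only 9 counts of the 3p arm.

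miR-26a-5p was then set against the muscle-enriched miRNAs of the differentiated striated muscle fibre. The list comprised entries of miR-206, miR-499, miR-133 and miR-1 (miR-208 and miR-486 were looked for and had no entry). Their summed counts per count of miR-26a-5p were 21.3 and 7.36 in the E11 libraries, 59.4 and 86.4 in the E16 libraries, and 53.9 and 95.7 in the P1 libraries. miR-26a-5p was thus lower relative to these miRNAs in every E16 and P1 library than in either E11 library, and the E16 and P1 libraries overlapped. The log2 ratio of miR-26a-5p to the list was 2.52 lower at E16 than at E11 and 2.52 lower at P1 than at E11 (exact two-sided permutation p = 0.3333 for each, the smallest possible). Without miR-133a-3p in the list these differences were -1.85 and -1.70. Without E11 replicate 2 they were -1.75 at both ages, and without E11 replicate 1 they were -3.28 at E16 and -3.29 at P1. Between P1 and E16 the difference was -0.0033 (exact permutation p = 1), with values from -0.42 to 0.41 when 1 library was left out.

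**Figure D4:**
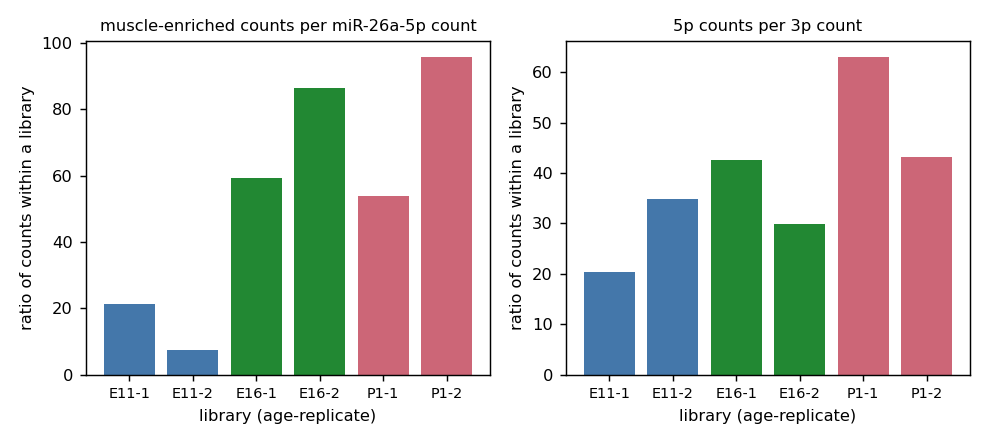
Ratios of counts within each library (y axes, from 0; x axis, age and replicate), with muscle-enriched counts per miR-26a-5p count on the left and 5p counts per 3p count on the right. The left panel shows 7.36 to 21.3 at E11 against 53.9 to 95.7 at the later ages, and the right panel runs from 20.3 in the first E11 library to 63.0 in the first P1 library.

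In the muscle list, unlike miR-26a-5p, several entries passed. Of its 10 tested entries 5 rose at E16 against E11, where 2.42% of all tested entries rose. The median log2 fold change there was 2.26, against -0.026 over all tested entries. None passed at P1 against E16 (1.09 against 0.09), where 0% of all tested entries passed. At P1 against E11 8 rose (3.47 against -0.15), where 14.2% of all tested entries rose. miR-133a-3p, the most abundant of them, had 4.94 (SE 0.46) and miR-133c-3p 3.83 (SE 0.50) at P1 against E11, and both were called in all 6 fits that left out 1 library. miR-499-5p, which is encoded inside a slow myosin gene, had 3.43 (SE 0.53) and was called in 4 of these 6. miR-206, an embryonic myoblast miRNA, had 1.06 (SE 0.51, adjusted p = 0.153) and, like miR-26a-5p, did not pass. It had 0.21 without P1 replicate 2.

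Other miRNAs known to be directed at Ezh2 in mammals are miR-101 and miR-214. Entries of each list were matched by miRNA number with any arm. The counts and medians therefore mix arms, and which arm carries the listed role was not separated. For miR-101 and miR-214 there were 3 tested entries, none of which passed in any comparison. Over all tested entries 6.57%, 0% and 30.4% passed at E16 against E11, P1 against E16 and P1 against E11, so with 3 entries none passing is near the background. miR-101-3p had a mean of 6420 ± 1354 CPM at E11 (SD, n = 2) and a log2 fold change of 0.88 at P1 against E11 (SE 0.33, edgeR Benjamini-Hochberg adjusted p = 0.0829). The rare miR-101-2-5p had 1.78 (SE 0.61, adjusted p = 0.0649), and was called without E11 replicate 2, where it had 3.05. miR-214 had -0.64 (SE 0.49, adjusted p = 0.387), opposite in sign to miR-26a-5p. The median of the 3 entries was 0.88, against -0.15 over all tested entries.

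miRNAs that favour myoblast differentiation in mammals outside the muscle list (miR-24, miR-27, miR-29, miR-181, miR-214, miR-378, miR-424 and miR-503) had 9 tested entries. Either arm was taken, so miR-27b-5p and miR-181a-3p are among them. No entry of miR-378, miR-424 or miR-503 was tested. None of the 9 passed between neighbouring ages, where 6.57% (E16 against E11) and 0% (P1 against E16) of all tested entries passed. With 9 entries this is near the background. At P1 against E11, 2 rose and 2 fell, where 14.2% of all tested entries rose and 16.3% fell, with a median of 0.46 (against -0.15). miR-27b-3p, which acts on Pax3 in mouse, rose by 1.41 (SE 0.34), and miR-24-3p rose by 1.45 (SE 0.44). miR-181b-5p (-1.86, SE 0.57) and miR-181a-3p (-1.59, SE 0.39) fell, and the abundant miR-181a-5p had 0.21 (SE 0.43, adjusted p = 0.755). The calls of miR-27b-3p and miR-24-3p were lost in all 6 fits that left out 1 library, and those of miR-181b-5p and miR-181a-3p in 5 of 6. Without E11 replicate 1 miR-181b-5p had -0.68.

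miRNAs that hold back myoblast differentiation in mammals (miR-23a, miR-125b, miR-155, miR-199a, miR-221 and miR-222) had 7 tested entries. Either arm was taken, so miR-125b-3p, miR-199-3p and miR-221-5p are among them. No entry of miR-23a or miR-155 was tested. None of the 7 passed between neighbouring ages, where 6.57% (E16 against E11) and 0% (P1 against E16) of all tested entries passed. At P1 against E11 1 fell and none rose, with a median of -0.72 (against -0.15). In that comparison 16.3% of all tested entries fell and 14.2% rose, so these counts are near the background. miR-222a, which targets the cell cycle inhibitor p27 in mammalian cells, fell by 1.78 on the log2 scale (SE 0.38), a call kept in 2 of the 6 fits that left out 1 library. Its partner miR-221-3p had -0.72 (SE 0.38, adjusted p = 0.190). miR-199-5p had -0.17 (SE 0.31) and miR-125b-5p -0.22 (SE 0.41), neither of which passed. The counts of miR-125b-5p, and of miR-181a-5p above, lay within 10% or 3 counts of those of an unnamed entry in every library, so the same reads may be listed under both.

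The entries whose pattern over the 6 libraries was nearest to that of miR-26a-5p were found by centring log2 CPM on each entry's own mean and taking the root mean square difference, among 106 named entries of at least 100 mean CPM. The nearest was miR-30d, at 0.17 log2 units, against a median of 0.87 over the 106 candidates. Its CPM was 675 and 1697 in the E11 libraries, 1889 and 1564 in the E16 libraries, and 3692 and 3545 in the P1 libraries. Counts of miR-30d per count of miR-26a-5p stayed between 1.26 and 1.77 in the 6 libraries, whereas miR-26a-5p itself ranged over 534 to 2551 CPM. The likeness was picked from the same libraries as the fold changes, so it is a description and carries no test.

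After miR-30d, the nearest named candidates were miR-126-3p, an endothelial miRNA, at 0.36, then miR-193b-3p at 0.36, miR-15a at 0.38 and miR-30b-5p at 0.38. Between E16 and E11 these had log2 fold changes of 0.90, 0.75, 1.00 and 0.89 in that order, and miR-30d had 0.54. All were larger than the 0.26 of miR-26a-5p, and none passed. Between P1 and E11, miR-30d had 1.61 (SE 0.49, adjusted p = 0.0443), miR-15a 1.58 (SE 0.48, adjusted p = 0.0443), miR-126-3p 1.77 (SE 0.43, adjusted p = 0.0291) and miR-30b-5p 1.97 (SE 0.52, adjusted p = 0.0327) in edgeR. These 4 passed where miR-26a-5p, at 1.39, did not, but each kept its call in only 1 of the 6 fits that left out 1 library, the fit without E11 replicate 2, the same fit in which miR-26a-5p passed. In that fit miR-30d had 2.40 and miR-30b-5p 2.78, and without E11 replicate 1 miR-30d had 1.15 and miR-30b-5p 1.49. miR-193b-3p had 1.41 (SE 0.51, adjusted p = 0.0731) and 0.83 without P1 replicate 1. The opposite arm, miR-26a-3p, stood at 0.51, with 10 of the 106 candidates nearer to miR-26a-5p than it. Its mean of 34.3 CPM is below the 100 CPM required of the candidates, so its distance is less precise than theirs.

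**Figure D5:**
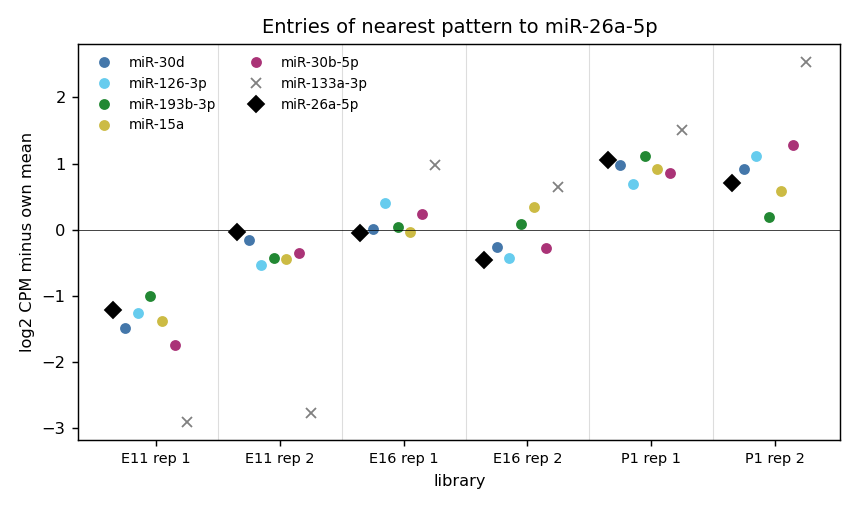
Log2 CPM minus the entry's own mean over 6 libraries (y axis) in each library (x axis). Black diamonds are miR-26a-5p, coloured circles the 5 named entries of nearest pattern and grey crosses miR-133a-3p. The circles, like the diamonds, are lowest in E11 replicate 1 and highest in the P1 libraries. Unlike miR-26a-5p, the circles of miR-126-3p, miR-193b-3p, miR-15a and miR-30b-5p lie higher in both E16 libraries than in E11 replicate 2. The crosses of miR-133a-3p span a wider range.

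By mean level over the 6 libraries miR-26a-5p was 54th among the named tested entries, at 1396 CPM. Next above it were miR-499-3p (1433 CPM), miR-133c-3p (1436 CPM) and miR-20a-5p (1570 CPM), and next below miR-20b-5p (1390 CPM), miR-125b-3p (1356 CPM) and miR-19a-3p (1300 CPM). The range over libraries of each of these 6 overlapped that of miR-26a-5p, so their order is not resolved. They reached that mean in different ways: miR-133c-3p ran from 150 to 3571 CPM, and miR-125b-3p only from 1052 to 2290 CPM.

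Markers of other cell types moved between the same ages. Muscle fibre miRNAs were present in every library, from 1.04% of counts in the second E11 library to 15.4% in the second P1 library, and 9 to 13 of their 13 entries were listed. Endothelial miR-126, both arms listed throughout, took 1.55% and 2.18% of E11 counts, 4.84% and 3.77% of E16 counts, and 5.04% and 5.96% of P1 counts. Epithelial miRNAs (6 to 8 of 8 entries listed) took 1.18% and 1.21% at E11 and at most 0.0997% later. The near-equal E11 sums hid members that differed in opposite directions between the first and second library. miR-205a had 6408 and 3552 CPM there, and miR-429-3p had 254 and 1731 CPM. Erythroid miR-144 and miR-451 (3 of 3) took 3.05% in the first P1 library, where miR-26a-5p was also highest, and 0.285% to 0.631% in the other 5. Without that library miR-26a-5p had a log2 fold change of 1.17 at P1 against E11 (adjusted p = 0.209). Leukocyte miRNAs (3 of 3) took 0.0102% to 0.0706%, also highest in the first P1 library. Cartilage miR-140 took 0.00516% to 0.103%, its 5p arm being at 0 in 3 libraries. Neural miR-9 and miR-124 took 0.00560% to 0.0115%, with each of the miR-124 entries at 0 in 4 libraries. The part of these markers in the level of miR-26a was not tested. In a bulk sample more cells that hold miR-26a and more miR-26a per cell cannot be told apart. miR-2954, a Z-linked and male-biased miRNA, had 8672 CPM in the second P1 library and 437 CPM in the first. The embryonic libraries had 307 to 415 CPM of it. Whether every sample was female, as labelled, was not tested, nor was any part of sex in the level of miR-26a.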

How the data were processed

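Small RNA libraries were made from leg muscle RNA extracted with Trizol, per the labels' protocols. A label adds RNase R treatment and ribosomal depletion, wording of another library kind. The submitters' processing notes name Trim Galore, Bowtie, TopHat, Cufflinks and galGal4, without role or version. The deposited values were used as counts, although the file headers call the column FPKM: all were whole numbers, 1 was the most frequent in each file, and totals differed. If the header is right, the count tests are unsuitable. An entry missing from a file was given 0. No other entry came within 10% of miR-26a-5p in every library. That check finds only near-equal counts, so miR-26a reads listed under another entry at another level would escape it. miRNA sequences were not used here, and coordinates on GRCg7b served only to name the genes that span the hairpins.

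Tests used edgeR 4.0.16 (R 4.3.3): filterByExpr (minimum count 10, minimum total 15), TMM, and a quasi-likelihood fit with 1 coefficient per age over 6 libraries (3 residual degrees of freedom). The fit was also run on simulated counts. These had less spread than the data and larger changes than that of miR-26a-5p, so that run does not show how well such a change is detected here. P-values were two-sided and adjusted by Benjamini-Hochberg over 289 entries, and SE was the log2 fold change over the square root of F. Ratios and shares were compared by exact permutation. DESeq2 1.42.0 and limma 3.58.1 served as alternatives. By rule, the text names the miR-26a entries, the 5 named entries of nearest pattern, and the 3 next above and below in mean CPM. It also names up to 4 abundant entries of each list, where a lettered name also took the unlettered chicken entry (miR-199). miR-24-3p, miR-10a-5p, miR-205a, miR-429-3p, miR-2954 and 7_32911 were added after their values were seen. The members and lists were chosen with earlier results of these data known. Replicates of an age differed by more than sampling noise (chi-square per degree of freedom of 171 to 489) and were kept apart.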

Additional observations from a re-analysis of the deposited data

How the results depend on the processing

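The log2 fold change of miR-26a-5p kept its sign and its side of the threshold in all 16 alternatives at P1 against E16, in 15 at E16 against E11 and in 13 at P1 against E11. Leaving out 1 library, which takes the lone sample of its age to vary like the other ages, gave -0.085 to 0.95 at E16 against E11, 0.84 to 1.30 at P1 against E16 and 0.98 to 2.07 at P1 against E11, where the adjusted p fell under 0.05 without E11 replicate 2, in DESeq2 (1.45) and with no filter (1.73). miR-26a-3p at E16 against E11 ran from -0.14 to 0.12 without 1 library and was 0.19 with no filter. The E16 minus E11 difference in percent of counts ran from -0.0338 to 0.0475 for the 5p arm and from -0.00109 to 1.91e-05 for the 3p arm without 1 library. The P1 minus E11 difference of the 3p arm (0.000123) ran from -0.000432 to 0.000677, and was -0.000456 as a share of named entries. The ratio to the muscle list at P1 against E16 was 0.15 without miR-133a-3p and -0.42 to 0.41 without 1 library. The cause of these shifts was not tested.

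The entries called at E16 against E11 (19) were 46 with no filter, 38 in DESeq2, 12 with the stricter filter, 12 with named entries only and 0 to 11 without 1 library. At P1 against E16 (0) they were 13 with no filter, 2 in DESeq2 and 0 to 1 without 1 library. At P1 against E11 (88) they were 53 with the stricter filter, 28 with only the 2 ages fitted and 10 to 61 without 1 library, where fewer samples enter. Same-numbered libraries did not deviate together between E11 and E16 or between E11 and P1 (correlations of deviations -0.019 and -0.032). Between E16 and P1 the correlation was 0.33, so something shared by same-numbered libraries of these ages is not excluded. With the replicate block 30 entries were called at P1 against E11 and 13 at E16 against E11, and miR-26a-5p had 0.30, 1.12 and 1.42 in the 3 comparisons, called in none.

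Among the other miRNAs, at P1 against E11, miR-181a-5p was -0.24 with library totals, -0.043 with the stricter filter, -0.12 in limma and -0.32 to 1.04 without 1 library. miR-199-5p was 0.16 with no filter and -0.44 to 0.061 without 1 library, and miR-125b-5p was 0.11 with no filter and -0.51 to 0.22 without 1 library. The 9 to 94 counts of miR-26a-3p limit its precision.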
